A study of Homo sapiens with 36 samples.

Results

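The 10 genes described here encode enzymes that modify and crosslink collagen: the prolyl 4-hydroxylase subunits P4HA1, P4HA2, P4HA3 and P4HB, the lysyl hydroxylases PLOD1, PLOD2 and PLOD3, and the lysyl oxidases LOX, LOXL2 and LOXL4. They were chosen by symbol, and all 10 were found among the 60591 rows of the mRNA count table. The series holds 36 libraries made from Caco-2 and HT-29, both lines of human colorectal carcinoma, and the 18 mRNA libraries are used here, with 3 replicates in each of 6 groups. Caco-2 cells were kept for 21 days under differentiating conditions, which give a polarised layer like that of the small intestine, and no such period is stated for HT-29. In each line, cells received for 24 h CoCl2 at 300 µM, an oxyquinoline derivative (OD), given in the labels by a supplier's catalogue number, at 5 µM, or, in the control, dimethyl sulfoxide at 0.5 µl per ml as the labels give it. OD was added in the same volume of that solvent. The labels describe the CoCl2 stock as made in water, while the study's methods give the solvent in that medium too and at another concentration, so any difference in solvent between these 2 groups cannot be told apart from the effect of CoCl2. Cell line and culture state cannot be told apart either. Both agents serve as chemical mimics of hypoxia, and the comparisons ask how these genes differed between treated and control cells and between the lines.

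Collagen chains are modified in the endoplasmic reticulum before they fold. Prolyl 4-hydroxylase is a tetramer of catalytic alpha subunits (P4HA1, P4HA2 or P4HA3) and of the beta subunit P4HB, which is also protein disulfide isomerase, and its product 4-hydroxyproline stabilises the triple helix. Lysyl hydroxylases act on lysines, PLOD2 mainly on those of the telopeptides, and lysyl oxidases then oxidise lysines and hydroxylysines outside the cell to start the crosslinks. The hydroxylases need oxygen, iron and 2-oxoglutarate, as do the prolyl hydroxylases by which hypoxia-inducible factor (HIF) is sent to degradation, and P4HA1, P4HA2, PLOD2 and LOX are textbook HIF targets. P4HA1, P4HA2 and PLOD2 also belong to a core gene set that the study chose partly on these Caco-2 libraries, so their rise in Caco-2 is not independent evidence of their direction.

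HIF binds a short core sequence, and the 250 bases before the RefSeq start of each gene (build GRCh38.p14) were searched for ACGTG and GCGTG on both strands. The promoter table held 8 of the 10 genes, all but P4HA3 and LOXL2, and LOX had 3 entries, of which the most 5′ was used. The windows below are shown because they surround each match in the genes that held one. They are written 5′ to 3′ on the strand of the gene, and the capitals mark the match, as ACGTG or GCGTG, or as CACGT where ACGTG lies on the other strand.
P4HA1, chr10:73096936-73096964, minus strand: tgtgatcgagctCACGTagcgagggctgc
P4HB, chr17:81860608-81860636, minus strand: ggccccagcggcGCGTGcgcgccgcggcc
PLOD1, chr1:11934637-11934665, plus strand: gcgcgggggaggGCGTGgaggggcggggt
PLOD1, chr1:11934680-11934708, plus strand: ggcgggcccagtGCGTGgcagcgggacct
PLOD2, chr3:146161381-146161409, minus strand: gccagaagcgctGCGTGagcctccacacg
PLOD2, chr3:146161368-146161396, minus strand: cgtgagcctccaCACGTagccgcaggcag
PLOD2, chr3:146161314-146161342, minus strand: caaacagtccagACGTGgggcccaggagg
LOX, chr5:122078428-122078456, minus strand: gctccctgtgcaACGTGtctggggggagg
LOX, chr5:122078359-122078387, minus strand: ctgtccgccttgCACGTttccaatcgcat
LOX, chr5:122078341-122078369, minus strand: tccaatcgcattACGTGaacaaatagctg
LOX, chr5:122078285-122078313, minus strand: gtaactttgcaaACGTGccagaaagttta

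LOX held 4 matches and PLOD2 held 3, while P4HA2, PLOD3 and LOXL4 held 0 in this window. The RefSeq starts differ from the GENCODE bounds of the genes printed below. Each window except that of LOXL4 lies wholly or partly inside those bounds, so a number of matches holds for that RefSeq start only. Of 35116 promoters searched in the same way, 43.2% held at least 1 match, 7.76% at least 3 and 3.22% at least 4, where a palindrome CACGTG counts on each strand. A match is a description of the letters and not a binding site.

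Total counts ran from 12925719 to 22332639 per library, and 3 counts, the floor used here, corresponded to 0.113 to 0.25 CPM, the counts of a gene relative to the library's total. CPM are given on library sizes scaled within each line by TMM, which trims extreme genes before it compares libraries. The 10 genes together took from 0.0939% to 0.112% of the counts in control libraries and from 0.183% to 0.273% in treated ones. The epithelial identity of both lines was visible in EPCAM, with a mean of 804 CPM in Caco-2 and 475 CPM in HT-29 controls, and 9 or 10 of 10 epithelial markers were over the floor in every library of each group. The levels of some of them moved with treatment. With CoCl2, 3 of 9 tested were called higher and 1 lower in Caco-2, and 2 of 10 higher and 3 lower in HT-29, where VIL1 fell by 2.62 and CDX2 by 1.46 on the log2 scale and KRT19 rose by 2.35 ± 0.05. With OD, 1 was higher in Caco-2, and 1 higher and 1 lower in HT-29. Among all genes tested in Caco-2, 23.4% were called with CoCl2 and 11.7% with OD. For HT-29 these shares were 41.3% and 17.1%. Whether the markers of any list were called more often than all genes was not tested. Of 5 goblet cell markers tested in HT-29, SPDEF, MUC2 and FCGBP fell with CoCl2, by 1.31, 1.03 and 1.41, and FCGBP fell by 1.63 with OD. In Caco-2, ZG16 rose with each agent, while TFF3 fell by 0.86 with CoCl2 and 0.58 with OD without being called. The mean summed level of the 7 goblet cell markers was 670 CPM in HT-29 control, 782 CPM with CoCl2 and 812 CPM with OD. In Caco-2 it was 803, 751 and 739 CPM, in the same order. AGR2 made up 588, 745 and 765 CPM of the HT-29 sums. In Caco-2, AGR2 made up 747, 691 and 668 CPM. The goblet cell markers tested had median log2 fold changes of -1.03 (CoCl2) and -0.73 (OD) in HT-29. In Caco-2 these medians were -0.27 and -0.16. Of 11 fibroblast markers, from 3 to 5 were over the floor in every library of a group. DCN, THY1, FAP, PDPN, TWIST2 and COL1A2 had group means of at most 0.198 CPM. In Caco-2 controls COL1A1 had 25.1, S100A4 15.1, PDGFRA 8.29, LUM 3.74 and COL3A1 0.809 CPM. The summed level ran from 40.3 to 54.4 CPM in Caco-2 and from 96.3 to 172 CPM in HT-29, most of the latter S100A4. All 10 enterocyte markers were over the floor in every Caco-2 control library, and 5 of 10 in HT-29. With CoCl2 in Caco-2, 2 of the 10 were called higher, APOA4 by 2.22 and SLC15A1 by 1.55. Another 3 were called lower, among them SI and LCT, which fell by 1.33 and 1.47. With OD, APOA4 and SLC15A1 were the 2 called higher there, by 1.31 and 1.97, and 0 were lower. The mean summed level of the 10 was 3962 CPM in Caco-2 control, 4966 CPM with CoCl2 and 4389 CPM with OD. Of these sums APOA1 made up 2545, 3721 and 2608 CPM and DPP4 817, 837 and 1117 CPM. The median log2 fold change of the 10 was -0.42 with CoCl2 and 0.14 with OD. FABP1 went from 222 CPM in control to 132 CPM with CoCl2 and 263 CPM with OD. Of 5 tested in HT-29, 2 were lower with CoCl2, and 1 was higher and 1 lower with OD. The part of these marker changes in the results below was not tested.

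A gene was called when its adjusted p from the edgeR quasi-likelihood test (FDR) fell below 0.05 with a log2 fold change of more than 1 in either direction. In Caco-2, 5 of the 10 genes were called with CoCl2, all higher, where 23.4% of the genes tested were called and 9.13% were called higher. With OD, 5 of 10 were called in Caco-2, all higher, against 11.7% of all genes, or 4.43% called higher. In HT-29, 9 of the 10 were tested, LOXL2 being too low, and 7 were called with CoCl2, 6 higher and 1 lower, against 41.3%, or 17.4% called higher and 23.9% lower. With OD, 3 of 9 were called in HT-29, all higher, against 17.1%, or 9.5% called higher. With CoCl2, these genes had a median log2 fold change of 1.19 in Caco-2, while HT-29 had 1.57, and with OD the medians were 0.83 and 0.65, beside medians between -0.03 and 0.01 over all genes. P4HA1 and P4HA2 were called in all 4 comparisons. In bulk RNA, a change in the share of cells expressing a gene and a change in RNA per cell cannot be told apart.

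**Figure D1:**
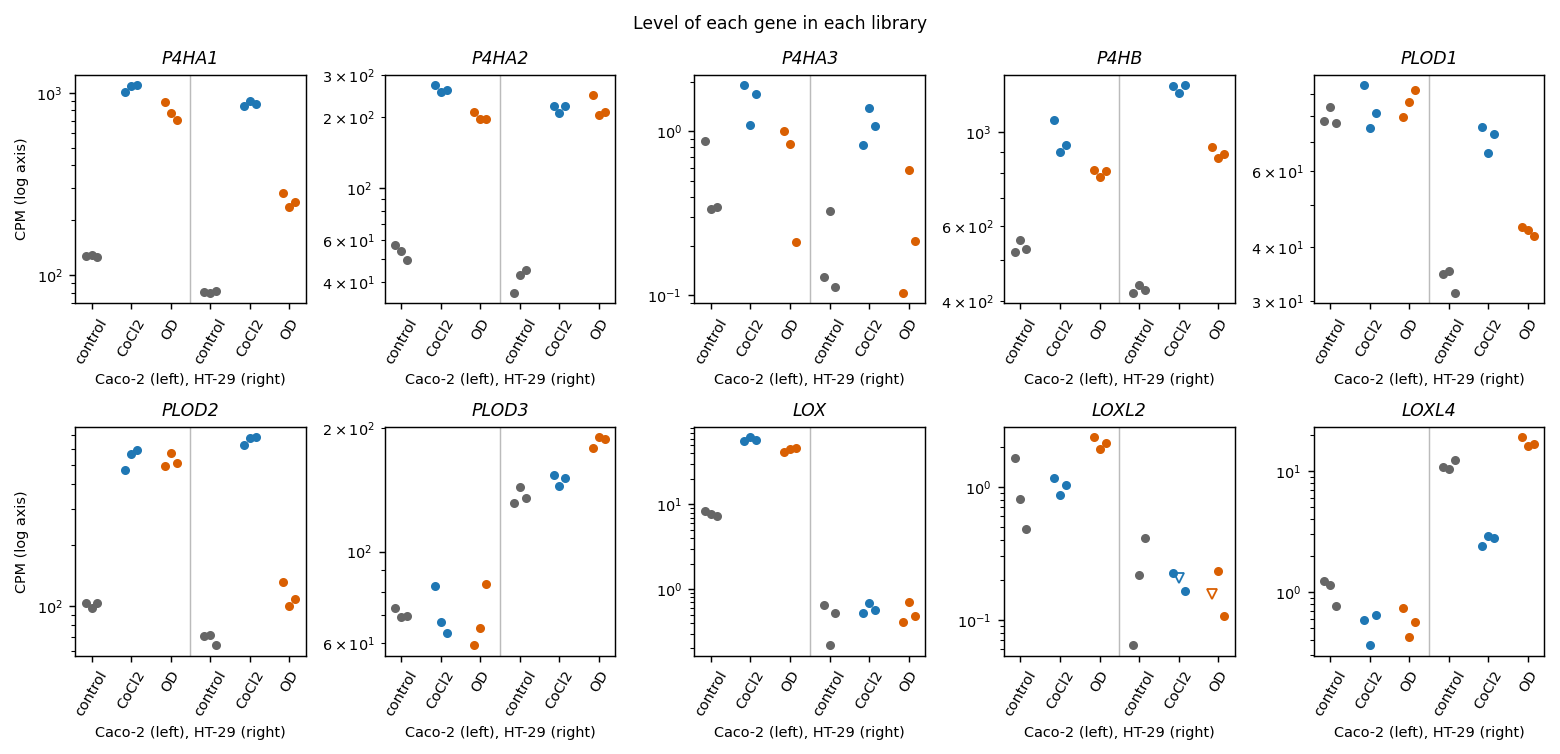
CPM of each of the 10 genes in each of the 18 libraries, on log axes that differ between panels, with Caco-2 to the left and HT-29 to the right of the grey line. Each filled point is 1 library, and the open triangles of LOXL2 stand at 3 counts for 2 libraries without a read; P4HA1 in OD-treated HT-29 lies between 237 and 281 CPM, well under the 845 to 900.0 CPM with CoCl2, while the P4HA2 libraries of the 2 agents overlap there.

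P4HA1, the main catalytic alpha subunit in most cells (chr10:73007217-73096974, minus strand, GRCh38), rose in both lines with both agents. In Caco-2, its level was 127, 128 and 126 CPM in the control libraries, 1015, 1096 and 1104 CPM with CoCl2, and 886, 772 and 706 CPM with OD. The treated and control libraries were far apart, and the CoCl2 libraries all stood above the OD libraries. The log2 fold change was 3.08 ± 0.09 (SE) with CoCl2 and 2.63 ± 0.08 with OD (FDR 2.07e-19 and 9.35e-18, edgeR), so that the level was 8.44 and 6.20 times that of control.
In HT-29, P4HA1 had 80.6, 79.7 and 81.7 CPM in control, 845, 900.0 and 866 CPM with CoCl2, and 281, 237 and 252 CPM with OD. The 3 groups did not overlap, and OD stood between control and CoCl2. The log2 fold changes were 3.43 ± 0.06 and 1.67 ± 0.06 (FDR 1.38e-26 and 1.95e-19, edgeR).

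P4HA2, a second catalytic alpha subunit (chr5:132190147-132295315, minus strand), rose in every treated group. It had 57.2, 54.1 and 49.6 CPM in Caco-2 control, 273, 256 and 261 CPM with CoCl2, and 209.7, 197 and 196 CPM with OD. In HT-29 it had 35.9, 42.8 and 44.7 CPM in control, 222, 209 and 222 CPM with CoCl2, and 248, 203 and 209.8 CPM with OD. In Caco-2 every CoCl2 library stood above every OD library. In HT-29 the libraries of the 2 agents overlapped, unlike those of P4HA1. With CoCl2 the log2 fold change was 2.29 ± 0.08 in Caco-2, while HT-29 had 2.39 ± 0.07, and with OD they were 1.90 ± 0.08 and 2.41 ± 0.07 (FDR from 5.59e-21 to 7.2e-16, edgeR). The gene overlaps P4HA2-AS1, PDLIM4 and SLC22A4 on the other strand, and the use of strand in counting is not stated, so reads of these genes may be shared.

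P4HA3, the remaining alpha subunit (chr11:74235801-74311640, minus strand), was near the floor and held 2 to 31 counts in a library. It had 0.873, 0.335 and 0.346 CPM in Caco-2 control and 1.92, 1.09 and 1.68 CPM with CoCl2, groups that did not overlap. In HT-29 it was 0.129, 0.328 and 0.113 CPM in control and 0.822, 1.38 and 1.07 CPM with CoCl2. P4HA3 rose with CoCl2 in both lines, by 1.54 ± 0.47 in Caco-2 (FDR 0.00583, edgeR) and 2.54 ± 0.49 in HT-29 (FDR 3.05e-05) on the log2 scale. Without the first Caco-2 control library, which was the highest of its group, the Caco-2 value was 2.16. With OD it had 0.212 to 1.01 CPM in Caco-2 and 0.103 to 0.582 CPM in HT-29, and neither difference from control passed the test (0.38 ± 0.53 and 0.65 ± 0.64). P4HA3 overlaps PPME1 and P4HA3-AS1 on the other strand.

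P4HB, the beta subunit (chr17:81843159-81860856, minus strand), was called in HT-29 only, although it was higher in each treated group. In Caco-2 it had 521, 559 and 529 CPM in control, 1069, 898 and 935 CPM with CoCl2, and 814, 784 and 809.8 CPM with OD. In HT-29 it had 418, 438 and 425 CPM in control, 1284, 1233 and 1291 CPM with CoCl2, and 922, 871 and 887 CPM with OD. No treated library overlapped the controls in either line. The Caco-2 values, 0.85 ± 0.08 and 0.58 ± 0.08 on the log2 scale, stayed under the limit of 1 (FDR 5.71e-10 and 6.79e-07, edgeR), and the HT-29 values, 1.57 ± 0.04 and 1.07 ± 0.04, passed it. With library size as the sole scaling, the HT-29 values were 0.94 and 0.93 and the calls were lost.

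Among the lysyl hydroxylases, PLOD2 responded and PLOD3 was not called with either agent. PLOD2, which hydroxylates telopeptide lysines (chr3:146035139-146163725, minus strand), had 104, 97.0 and 104 CPM in Caco-2 control, 469, 567 and 592 CPM with CoCl2, and 493, 572 and 509.6 CPM with OD. Both agents raised it in Caco-2, and their libraries overlapped. The log2 fold changes were 2.42 ± 0.09 and 2.37 ± 0.09 (FDR 3.14e-17 and 1.61e-16, edgeR).
In HT-29, PLOD2 had 70.8, 71.5 and 63.8 CPM in control, 629, 682 and 684 CPM with CoCl2, and 131, 100.1 and 108 CPM with OD. The CoCl2 libraries stood far above both other groups, and the OD libraries stood a little above the controls. The log2 fold change was 3.28 ± 0.07 with CoCl2 (FDR 4.87e-24, edgeR), while that with OD, 0.72 ± 0.07 (FDR 1.08e-09), was under the limit of 1. LNCSRLR overlaps PLOD2 on the same strand.

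PLOD1, which acts mainly on helical lysines (chr1:11934205-11975538, plus strand), was called with CoCl2 in HT-29 only. It had 78.1, 84.2 and 77.5 CPM in Caco-2 control and from 75.3 to 94.6 CPM in the treated libraries, which overlapped the controls. In HT-29 it had 34.7, 35.2 and 31.4 CPM in control, 75.7, 65.8 and 73.1 CPM with CoCl2, and 44.5, 43.9 and 42.4 CPM with OD. The CoCl2 value, 1.09 ± 0.06 on the log2 scale (FDR 4.67e-15, edgeR), fell to 0.45 with library size as the sole scaling and to 0.89 with limma on the deposited log2 values, and the call was then lost.
PLOD3, a lysyl hydroxylase that also glycosylates collagen (chr7:101205977-101218420, minus strand), had from 59.3 to 83.3 CPM over all 9 Caco-2 libraries. In HT-29 it had 131, 144 and 135 CPM in control, 154, 144 and 151 CPM with CoCl2, and 179, 189.8 and 188 CPM with OD. Its log2 fold changes in Caco-2 were 0.01 (95% interval -0.20 to 0.22) with CoCl2 and -0.03 (-0.24 to 0.18) with OD. The HT-29 value with OD was 0.44 ± 0.05 (FDR 9.43e-09, edgeR), with no overlap between the groups but under the limit of 1. It overlaps ZNHIT1 on the other strand.

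The lysyl oxidases differed by line. LOX (chr5:122063195-122078413, minus strand) had 8.44, 7.65 and 7.41 CPM in Caco-2 control, 56.2, 62.2 and 57.4 CPM with CoCl2, and 41.2, 45.3 and 46.6 CPM with OD. In HT-29 it stayed between 0.219 and 0.698 CPM in all 9 libraries, or 4 to 14 counts. It rose in Caco-2 by 2.90 ± 0.10 with CoCl2 and 2.50 ± 0.10 with OD on the log2 scale (FDR 2.04e-17 and 1.39e-15, edgeR), which is 7.46 and 5.64 times the control level. In HT-29 the values were 0.37 (95% interval -0.46 to 1.19) and 0.18 (-0.61 to 0.96), a difference not detectable at this depth. SRFBP1 overlaps LOX on the other strand.

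LOXL4 (chr10:98247690-98268194, minus strand) had its higher levels in HT-29. It had 10.8, 10.3 and 12.4 CPM in HT-29 control, 2.39, 2.90 and 2.80 CPM with CoCl2, and 19.0, 16.1 and 16.7 CPM with OD. The agents went in opposite directions, with every CoCl2 library below and every OD library above the controls. It fell by 2.06 with CoCl2 on the log2 scale (SE 0.14, FDR 3.31e-13, edgeR), and the OD value of 0.61 ± 0.09 (FDR 2.55e-06) was under the limit of 1. In Caco-2 it held 5 to 21 counts per library, with 0.762 to 1.22 CPM in control, 0.363 to 0.649 CPM with CoCl2 and 0.420 to 0.740 CPM with OD, and neither comparison with control passed the test (-0.95 ± 0.43 and -0.87 ± 0.42). Without the third Caco-2 control library the CoCl2 value was -1.12 (FDR 0.0485, edgeR) and passed it. With library size as the sole scaling both passed, at -1.27 (FDR 0.0105, edgeR) with CoCl2 and -1.02 (FDR 0.0415) with OD.
LOXL2 (chr8:23296897-23425328, minus strand) was low throughout. It had 1.63, 0.805 and 0.485 CPM in Caco-2 control, 1.17, 0.872 and 1.03 CPM with CoCl2, and 2.35, 1.92 and 2.12 CPM with OD, and it held 0 to 11 counts in the HT-29 libraries. The OD value of 1.09 ± 0.36 in Caco-2 (FDR 0.0141, edgeR) became 0.96 without the second control library, 0.78 without the third and 0.93 with library size as the sole scaling, with the call lost, and 1.71 without the first. ENTPD4 overlaps LOXL2 on the same strand.

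**Figure D2:**
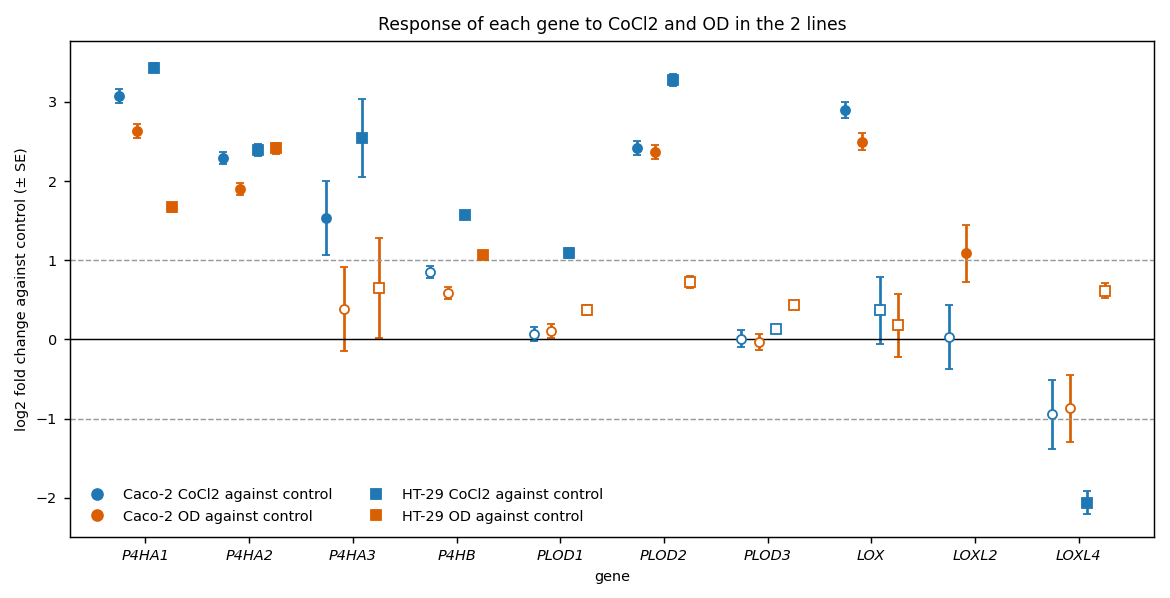
Log2 fold change against control with its SE for each gene, in Caco-2 (circles) and HT-29 (squares), with CoCl2 in blue and OD in orange. Filled symbols were called and open ones were not, dashed lines mark the fold limit of 1, and LOXL2 was not tested in HT-29; in HT-29, PLOD2 stands at 3.28 with CoCl2 but at 0.72 with OD, against 2.42 and 2.37 in Caco-2.

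The agents were also set against each other. The doses were 300 µM CoCl2 and 5 µM OD, and both comparisons use the same treated libraries as above. In Caco-2, 2 of 10 genes were called, P4HA3 higher with CoCl2 (1.15 ± 0.45) and LOXL2 lower (-1.06 ± 0.36), where 11.7% of all genes were called, 5.21% higher and 6.44% lower. Both calls were lost with DESeq2, and leaving out any of 5 single libraries left 1 call. P4HA1, P4HA2 and LOX were higher with CoCl2 by 0.44, 0.39 and 0.40 (FDR 4.77e-05, 8.24e-05 and 0.00049, edgeR), under the limit of 1, and PLOD2 differed by 0.05 (95% interval -0.11 to 0.21).
In HT-29, 4 of 9 genes were called, against 29.9% of all genes, 10.8% higher and 19.2% lower. PLOD2 was higher with CoCl2 than with OD by 2.56 ± 0.07, P4HA3 by 1.90 ± 0.46 and P4HA1 by 1.76 ± 0.05, and LOXL4 was lower (-2.68 ± 0.13). Without the second OD library, the P4HA3 value was 2.74. P4HA2 differed by -0.02 (95% interval -0.15 to 0.11).

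The difference in response between the lines was tested as an interaction over all 18 libraries, taken as the HT-29 change less the Caco-2 change. For CoCl2, 2 of 10 genes were called, both lower, against 21.6% of all genes and 13.8% called lower. These were LOX at -2.64 ± 0.41 (FDR 1.48e-06, edgeR) and LOXL4 at -1.22 ± 0.41 (FDR 0.0131). The LOXL4 value was -1.01 (FDR 0.113) without the third Caco-2 CoCl2 library. PLOD1 was at 0.91 ± 0.11, and it passed the limit without the first Caco-2 CoCl2 library (1.01) and with DESeq2 (1.02). P4HA2 differed between the lines by -0.01 (95% interval -0.23 to 0.21).
For OD, 4 of 10 were called, against 15.2% of all genes, or 8.96% called higher and 6.24% lower. The difference was -1.67 ± 0.12 for PLOD2 (FDR 3.07e-13, edgeR) and -2.34 ± 0.39 for LOX. LOXL4 was at 1.48 ± 0.36 and LOXL2 at -2.31 ± 0.90 (FDR 0.0316), the latter with 0 to 11 counts in HT-29 and lost when any of 5 single libraries was left out, with a value of -1.51 (FDR 0.317) without the third HT-29 control library. It was -2.93 without the first Caco-2 control library and -3.26 without the second HT-29 OD library. P4HA1 was close to the limit, at -0.98 ± 0.10 (FDR 9.45e-10), and passed it, at -1.06, without the third Caco-2 OD library or the first HT-29 OD library. P4HA2 had the opposite sign, at 0.49 ± 0.11 (FDR 0.000446).

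In control cells, 6 of 10 genes were called between the lines, against 45.8% of all genes, or 21.6% called higher and 24.2% lower in HT-29, in a fit with TMM over all libraries. LOXL4 was higher in HT-29 by 3.50 ± 0.19 and PLOD3 by 1.04 ± 0.09 on the log2 scale. LOX was lower in HT-29 (-3.97 ± 0.21), as were LOXL2 (-1.82 ± 0.52), P4HA3 (-1.42 ± 0.65, FDR 0.0415, edgeR) and PLOD1 (-1.16 ± 0.08). The P4HA3 call was lost without the first Caco-2 control library (-0.78) or without the first or the third HT-29 control library (-1.26 and -1.06) and under DESeq2 (-1.48, adjusted p = 0.0689), and that of LOXL2 without the first Caco-2 control library (-1.20, FDR 0.0711) while it stood at -2.61 without the third HT-29 control library. The PLOD3 value was 0.97 under DESeq2 size factors and under DESeq2, below the limit of 1.

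Levels of different genes were compared per kilobase, with 1 length for each gene, the median over libraries of those implied by the deposited tables, which are longer than the MANE Select transcript for 7 of the 8 genes that have one. In control cells P4HB was highest, at 103 ± 3.78 CPM per kb in Caco-2 and 82.0 ± 1.89 in HT-29 (SD, n = 3), followed by P4HA1 at 41.3 ± 0.38 and 26.2 ± 0.33. The second place in HT-29 depended on the lengths, since with those of the MANE Select transcripts PLOD3 had 48.5 ± 2.21 CPM per kb there and P4HA1 29.4 ± 0.37. In Caco-2 PLOD1, PLOD2 and PLOD3 followed at 15.1 ± 0.70, 13.3 ± 0.51 and 12.5 ± 0.34, and P4HA2 at 6.34 ± 0.45. The means of PLOD2 and PLOD3 differed by less than the sum of their SDs, and with the MANE lengths PLOD1, PLOD2 and PLOD3 had 26.9 ± 1.24, 27.1 ± 1.03 and 25.1 ± 0.67. In HT-29 PLOD3 had 24.2 ± 1.10 with the implied lengths, and LOXL4 at 3.16 ± 0.31 stood above LOX at 0.0833 ± 0.0396, the reverse of Caco-2, where LOX had 1.41 ± 0.10 and LOXL4 0.293 ± 0.0693.

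The balance between subunits was computed per length in each library. P4HA3 has no implied length and was left out, except with the MANE Select lengths given further on. P4HA1 per length made up 85.9% to 87.5% of P4HA1 plus P4HA2 in the Caco-2 controls, 91.1% to 92.2% with CoCl2 and 90.8% to 92.1% with OD. In HT-29 the share was 83.4% to 86.1% in control, 91.3% to 92.2% with CoCl2 and 75.7% to 76.7% with OD. Treated and control libraries did not overlap, and the share was lower than control in OD-treated HT-29 alone. The log2 ratio of the alpha subunits to P4HB went from -1.11 ± 0.05 in Caco-2 control to 1.03 ± 0.19 with CoCl2 and 0.85 ± 0.15 with OD, and from -1.40 ± 0.04 in HT-29 control to 0.34 ± 0.07 and -0.65 ± 0.09 (SD, n = 3). PLOD2 per length made up 32.5% ± 1.28 of the 3 lysyl hydroxylases in Caco-2 control, 71.3% ± 5.09 with CoCl2 and 70.7% ± 2.83 with OD. The HT-29 shares were 22.7% ± 0.94, 68.5% ± 1.88 and 26.5% ± 3.16. Each of these 12 differences from control had p = 0.1 in a two-sided exact permutation test, the smallest that 3 against 3 libraries allow, so none could pass 0.05. With the lengths of the MANE Select transcripts, an alternative added after the data were seen, every difference from control kept its direction, but the levels moved. P4HA3 has such a length and entered the alpha subunits there, with group means of at most 0.692 CPM per kb. The alpha-to-P4HB log2 ratio was then 0.18 ± 0.18 in Caco-2 cells given CoCl2 and 0.0045 ± 0.15 in those given OD. In HT-29 it was -0.51 ± 0.07 with CoCl2, where its sign turned, and -1.37 ± 0.09 with OD. Whether the alpha subunits stood above P4HB therefore depended on the lengths used. The P4HA1 share in OD-treated HT-29 was 65.8% with the MANE lengths.

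**Figure D3:**
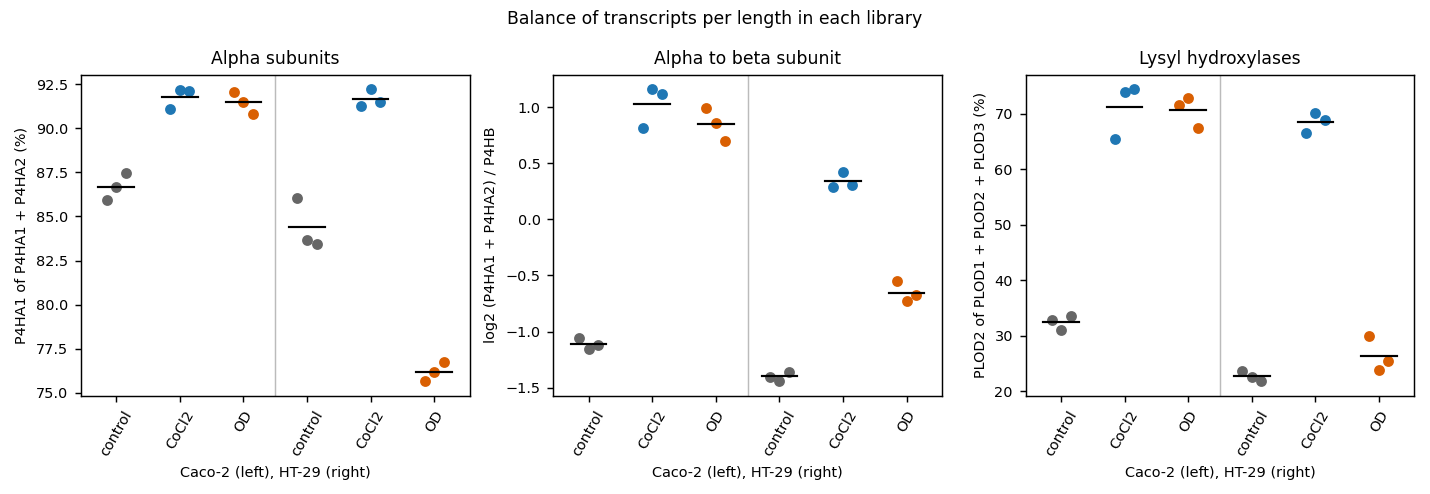
Share of P4HA1 in the alpha subunits (left, percent), log2 ratio of alpha subunits to P4HB (middle) and share of PLOD2 in the lysyl hydroxylases (right, percent), per length, in each library (points) with the group mean (bar). In HT-29, OD leaves the PLOD2 share between 23.9% and 30.0%, near the controls, and puts the P4HA1 share below them.

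Genes whose pattern was most like that of a member were sought among 9253 genes by Pearson's r of log2 CPM over the 18 libraries, centred within each line. The libraries share the same treatments, so high values are common, and r is a description. P4HA1 was closest to PGK1 (r = 0.996), a glycolytic kinase, and to LMO7 and ERO1A (both 0.993). PLOD2 was closest to GBE1, HK2 and ACBD5 (0.995 each), of which GBE1 branches glycogen and HK2 phosphorylates glucose. P4HA2 was closest to ARFGAP3, DUSP5 and KIAA1671 (0.98 to 0.982). For LOX, the closest were GOLGA8A, SNHG7 and CKB, with r from 0.937 to 0.947, but from 0.192 to 0.506 within HT-29, where LOX is near the floor.

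Other genes of the collagen pathway were counted in lists. Their counts stand beside the shares of all genes called, which with CoCl2 were 23.4% for Caco-2 and 41.3% for HT-29. With OD the shares were 11.7% (Caco-2) and 17.1% (HT-29). Whether a list was called more often than all genes was not tested. Of 14 other collagen modifiers, 13 were tested in Caco-2, with 2 higher and 3 lower with CoCl2 and 0 called with OD; in HT-29, 14 were tested, with 1 higher and 6 lower with CoCl2 and 2 higher and 3 lower with OD. The chaperones FKBP14 and SERPINH1 rose with CoCl2 in Caco-2 (1.11 ± 0.10 and 1.00 ± 0.07), and P3H4, a partner of the prolyl 3-hydroxylases, fell by 1.10 in Caco-2 and by 2.06 in HT-29. FKBP14 rose with OD in HT-29 (1.40 ± 0.08). TMEM38B, an endoplasmic reticulum ion channel, rose in HT-29 with both agents, by 1.41 ± 0.09 with CoCl2 and 1.16 ± 0.09 with OD. LOXL1, another lysyl oxidase, fell by 1.28 with OD in HT-29. As medians on the log2 scale, the list stood in Caco-2 at 0.04 (CoCl2) and 0.06 (OD), then in HT-29 at -0.35 and 0.04, where all genes tested had medians between -0.03 and 0.01.
Among genes of procollagen export and processing, 1 of 9 tested in Caco-2 was called with each agent, SEC24D, a COPII coat subunit. In HT-29, of 10 tested, 2 were higher and 1 lower with CoCl2, and 3 higher with OD. SEC24D was higher in all 4 comparisons, by 1.27 ± 0.09 and 1.12 ± 0.09 in Caco-2 and by 2.41 ± 0.05 and 1.78 ± 0.05 in HT-29. PCOLCE2, an enhancer of procollagen C-proteinase, rose in HT-29 by 2.53 ± 0.19 and 2.22 ± 0.18. The medians of this list, in the same order, were 0.21, 0.05, 0.38 and 0.48.

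The collagen chains are the substrates of these enzymes. Of 44 chains, 25 were tested in Caco-2, with 1 higher and 6 lower with CoCl2 and 0 higher and 3 lower with OD. COL2A1 had 131 ± 7.61 CPM in control and 43.6 ± 7.65 CPM with CoCl2, and COL4A1 fell by 2.23 with CoCl2 and by 1.00 with OD. In HT-29, 16 were tested, with 3 higher and 3 lower with CoCl2 and 8 higher and 1 lower with OD. COL4A1 had 13.7 ± 0.53 CPM with CoCl2 in HT-29, against 0.0365 ± 0.0631 CPM in control, which is under the floor. COL1A1 went from 1.41 ± 0.12 to 5.63 ± 0.61 CPM with OD, COL6A1 from 0.496 ± 0.102 to 5.07 ± 0.81 CPM and COL16A1 from 27.7 ± 2.12 to 78.9 ± 6.58 CPM, whereas COL27A1 fell by 1.35 with each agent. The mean summed level of the fibroblast markers, a list that holds COL1A1, was 101 CPM in HT-29 control, 132 CPM with CoCl2 and 163 CPM with OD, of which S100A4 made up 97.3, 128 and 156 CPM, and its part in these results was not tested. The chains had median log2 fold changes of -0.34, -0.39, 0.13 and 0.90.
Of 12 genes of elastic and associated matrix, 7 were tested in each line, with 0 called in Caco-2. In HT-29, 1 was higher and 4 were lower with CoCl2, and 4 were higher with OD. Examples are LTBP1, which fell by 1.52 with CoCl2, and EFEMP2, which rose by 1.48 ± 0.14 with OD and fell by 1.26 with CoCl2. Several of these calls rest on low levels. With CoCl2 against control in HT-29, ELN had 0.190 against 0.887 CPM, TNC 0.494 against 1.39 CPM and FBN1 1.29 against 0.387 CPM. The medians were 0.09, 0.0072, -1.26 and 1.27, of which the HT-29 values are those of EFEMP2 (CoCl2) and FN1 (OD).
Of 16 protein disulfide isomerase family members and partners, 14 were tested, with 2 higher with each agent in Caco-2, 4 higher and 1 lower with CoCl2 in HT-29 and 5 higher with OD in HT-29. ERO1A, the oxidase that recharges P4HB, was higher in all 4 comparisons, by 2.76 ± 0.08 and 2.03 ± 0.08 in Caco-2 and by 3.27 ± 0.06 and 1.46 ± 0.06 in HT-29. QSOX1, a sulfhydryl oxidase, rose in HT-29 by 2.13 ± 0.05 and 1.42 ± 0.05. The medians were 0.32, 0.19, 0.71 and 0.69.

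**Figure D4:**
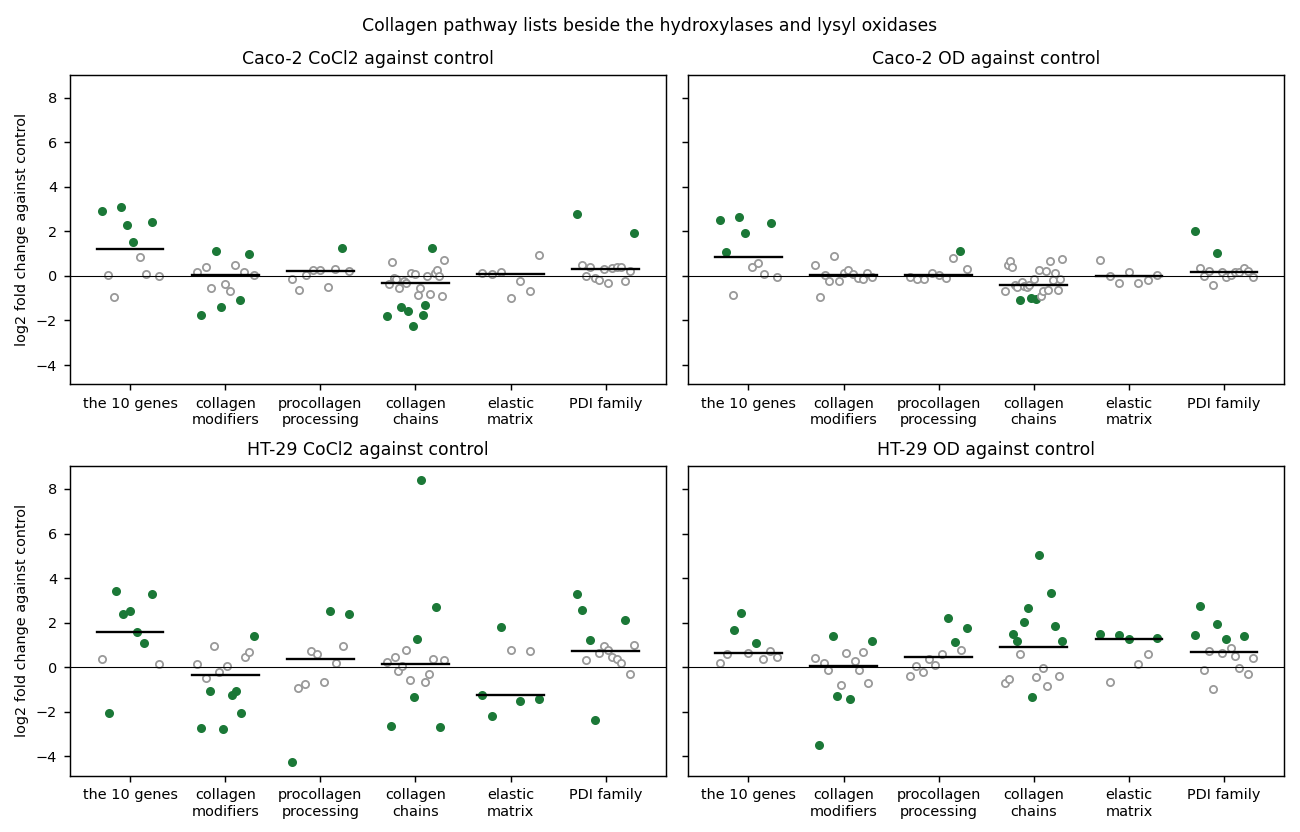
Log2 fold change against control of the 10 genes and of 5 lists of collagen pathway genes in each of the 4 comparisons, 1 point per gene tested, green where called and grey where not, with the median as a bar. The 10 genes have medians of 1.19 (CoCl2) and 0.83 (OD) in Caco-2, and of 1.57 and 0.65 in HT-29, and the highest point among collagen chains in HT-29 with CoCl2 is COL4A1, whose controls are under the floor.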

How the data were processed

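Unnormalized read counts of each gene, with a table of log2 values, were deposited by the authors. Reads from a stranded mRNA kit were trimmed with cutadapt 2.10 and aligned with STAR 2.7.5b to GRCh38.p13, per the labels. The counting tool and its use of strand are not given in the sources used here. The log2 values deposited by the authors were read as log2(RPKM + 1). Set against the CPM on the TMM library sizes of each line, they gave the gene lengths. The length implied for a gene varied by a median of 6.98% over libraries, so the deposited values do not exactly equal RPKM on these library sizes. The miRNA tables were not used, and 0 per-sample columns were left without a sample.

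Counts were tested with edgeR 4.0.16 (R 4.3.3): filterByExpr, TMM, 1 coefficient per group, quasi-likelihood F test, two-sided, Benjamini-Hochberg adjustment over all genes tested. Each line was fitted over its 9 libraries, and differences between lines over 18. DESeq2 1.42.0 and limma 3.58.1 were alternatives. In simulated data, 92.9% (Caco-2) and 96% (HT-29) of genes changed by 1.5 on the log2 scale with CoCl2 were recovered, and 75.8% for the line difference in the CoCl2 response. Few genes were changed there, in equal numbers up and down and in 1 group only. In the real data, 23.4% (Caco-2) and 41.3% (HT-29) of all genes were called with CoCl2. The simulation therefore cannot show how many changes are recovered when so many genes move. Chi-square per degree of freedom between replicates was 1.96 to 12.6, above counting error in every pair. The series' design text calls the replicates biological. Floors cover counting error only, since the reads carry no molecular identifiers.

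The genes and lists were chosen with earlier results of these data known. From each list, up to 3 called genes with the highest and 3 with the lowest change per comparison could be named, with a mean of at least 50 counts; likeness used genes with a mean of at least 100 counts in each line. Coordinates are from GENCODE 44, promoters from RefSeq.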

Additional observations from a re-analysis of the deposited data

Results flagged for a closer look

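The response to an agent differed between the lines, by the interaction test, in 6 cases, 2 of 10 genes for CoCl2, where 21.6% of all genes were called, and 4 of 10 for OD, where 15.2% were. For CoCl2, the HT-29 change less the Caco-2 change was -2.64 for LOX and -1.22 for LOXL4 on the log2 scale. For OD it was -1.67 for PLOD2, -2.34 for LOX, -2.31 for LOXL2 and 1.48 for LOXL4. LOX was near the floor in all HT-29 libraries, LOXL2 in all HT-29 libraries and LOXL4 in all Caco-2 libraries, and the part of these low counts in the differences was not tested. The LOXL4 difference for CoCl2 was lost without the third Caco-2 CoCl2 library (-1.01, FDR 0.113, edgeR), and that of LOXL2 for OD when any of 5 single libraries was left out, down to -1.51 (FDR 0.317) without the third HT-29 control library. PLOD2 had at least 1097 counts in every library.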

How the results depend on the processing

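The calls against control of P4HA1 and P4HA2 in both lines, of LOX in Caco-2 and of PLOD2 in Caco-2 and with CoCl2 in HT-29 kept their direction and side of the threshold under every alternative run. Where any fold change counted, the genes called were 7 of 9 for OD in HT-29 (68.8% of all genes tested), 6 of 10 and 7 of 9 for CoCl2 against OD in Caco-2 and HT-29 (49.6% and 77.7%), 6 and 8 of 10 for the line difference in the CoCl2 and OD responses (49.8% and 42.9%) and 10 of 10 between the controls (79.1%). For CoCl2 against OD in Caco-2, 1 gene was called with library size as the sole scaling, 0 with DESeq2, 0 with limma on the deposited log2 values, a table that does not hold P4HA3 and LOXL2, the genes called by edgeR, and so could not call them, and 1 to 2 without 1 library; the line difference in the CoCl2 response had 1 to 3. With library size alone, values near 0 changed sign: in Caco-2, PLOD1 was at -0.26 and PLOD3 at -0.31 and LOXL2 at -0.29 with CoCl2, PLOD1 at -0.047 with OD, and PLOD2 at -0.12 and PLOD3 at -0.13 for CoCl2 against OD; in HT-29, PLOD3 was at -0.50 and LOX at -0.26 with CoCl2 and LOX at -0.30 for CoCl2 against OD; and PLOD3 at -0.19 for the line difference in the CoCl2 response, which was -0.0036 without a filter on low counts. PLOD3 with CoCl2 in Caco-2 was at -0.032 with limma. P4HA2 was at 0.0057 for CoCl2 against OD in HT-29 under DESeq2 size factors, and its line difference for CoCl2 at 0.10 there and at 0.099 with DESeq2. The cause was not tested.

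Leaving out 1 library gave these ranges where a sign changed: LOX with OD in HT-29 -0.12 to 0.39; LOXL2 with CoCl2 in Caco-2 -0.28 to 0.65; P4HA3 with OD in HT-29 -0.20 to 1.24, and its line difference for OD -0.61 to 0.83; PLOD1 and PLOD3 with CoCl2 in Caco-2 -0.022 to 0.14 and -0.11 to 0.090; PLOD3 with OD in Caco-2 -0.18 to 0.067; the line difference for CoCl2 of P4HA2 -0.10 to 0.065 and of PLOD3 -0.066 to 0.13. For CoCl2 against OD they were LOXL4 -0.28 to 0.15, PLOD1 -0.13 to 0.032, PLOD2 -0.019 to 0.14 and PLOD3 -0.078 to 0.19 in Caco-2, and P4HA2 -0.078 to 0.076 in HT-29.

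Library size as the sole scaling moved the median of all genes to -0.35 and -0.66 with CoCl2 (Caco-2, HT-29) and to -0.18 and -0.13 with OD, and the share of higher calls among all calls from 39.1% and 42.1% to 19.7% and 17.2% with CoCl2 and from 37.9% and 55.7% to 23.3% and 43.4% with OD. Over all genes, limma on the deposited log2 values called 1098 (CoCl2) and 381 (OD) in Caco-2, against 3747 and 1876 with edgeR, and HT-29 had 2520 and 744 against 6524 and 2699; where any fold change counted, edgeR called 10370, 8084, 13097 and 10876 in that order. As deviations from the group mean, same-numbered libraries had r from -0.27 to 0.27. Libraries of different numbers were not compared in this way, so the values cannot decide whether a replicate number stands for a shared batch. With the replicate block the genes called were 5 with either agent in Caco-2, while HT-29 had 7 (CoCl2) and 3 (OD), the same counts as without it. P4HA3, LOXL2, LOX in HT-29 and LOXL4 in Caco-2 rest on at most 35 counts per library, which limits their precision.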
